A study of Mus musculus with 12 samples.

Results

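The binding of FRA-1 near 10 genes of the TGF-β and SMAD pathway was examined in mouse peritoneal macrophages. The genes were the ligand Tgfb1, the receptors Tgfbr1 and Tgfbr2, the signal carriers Smad2, Smad3 and Smad4, the inhibitor Smad7, and the corepressors Ski, Skil and Tgif1. They are 10 of the 21883 protein-coding genes placed by RefSeq on the mouse build GRCm38.p6, and they were chosen by name for their place in the pathway. A FRA-1 peak was assigned to a gene when it overlapped the gene body or the 20 kb on either side of it, or when the deposited table gave the gene's symbol for it. All 15 peaks that carried one of these symbols also lay inside the windows. In total 152 peaks fell in the 10 windows, which together cover 0.953 Mb.

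TGF-β is a secreted cytokine that binds the type II receptor TGFBR2, which then activates the type I receptor TGFBR1. The activated receptor phosphorylates SMAD2 and SMAD3, which join SMAD4 and enter the nucleus to control transcription. SMAD7 blocks the receptor, while SKI, SKIL (also called SnoN) and TGIF1 bind SMADs and repress their targets. FRA-1, encoded by Fosl1, is a FOS family member that pairs with JUN proteins to form AP-1, a factor that binds the sequence TGAGTCA. In macrophages TGF-β is known as an anti-inflammatory signal that is released after the uptake of apoptotic cells.

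The study precipitated FRA-1 from cultured peritoneal macrophages and sequenced the bound DNA (ChIP-seq). There were 3 groups of 3 samples: unstimulated cells (UT), cells given lipopolysaccharide (LPS), a component of bacterial walls, for 1 h, and cells given apoptotic cells (AC) for 1 h at a ratio of 1:5. All mice were 8 weeks old, male or female, and the labels name no gene alteration. The labels differ in places, since the LPS dose is given as 10 µg/mL or as 1 µg/mL, the mice as C57Bl/6 or as a 129/C57Bl6 background, and the cells either as thioglycollate-elicited or as collected by lavage with no mention of elicitation. The labels name 3 mice that each gave a sample to every group, while the design text counts 9 mice, so whether the samples of a group are separate animals in each group cannot be told apart from these sources. Peak tables hold no expression values, so the macrophage label could not be checked against marker genes. A further 3 pooled input samples were not analysed here.

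Each table listed the peaks of a group's 3 replicates, numbered here by column, with a score for each peak. The replicates held 25334, 20981 and 28314 peaks in UT, 46007, 39728 and 63010 in LPS, and 40821, 31501 and 79474 in AC. A property that cut across the groups was the width of the smallest peak. It was 116 bp in UT 3, 108 bp in LPS 1, 104 bp in LPS 3 and 104 bp in AC 3, and between 158 and 172 bp in the other 5 replicates. These 4 replicates are called narrow and the other 5 wide, and results that rest on the narrow ones are given with that fact. The sources used here do not give the number of reads behind a peak, so the depth of each value is unknown. The scale of the score is not given either, and its place within a replicate is therefore stated as a percentile, the percent of that replicate's peaks with the same or a lower score.

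FRA-1 peaks were found near all 10 genes, but most of them were seen in 1 replicate. The 152 peaks formed 119 separate regions, a region being a run of overlapping or touching peaks from any replicate. Of these, 108 held a peak from 1 replicate and 11 from at least 2, which is 9.24%, against 10.3% of all 300608 regions in the tables. The 11 shared regions belonged to 4 genes: 4 to Tgif1, 3 to Smad4, 3 to Skil and 1 to Smad2. No region near Tgfb1, Tgfbr1, Tgfbr2, Smad3, Smad7 or Ski was listed in more than 1 replicate. Only UT 3 of the UT replicates had peaks in most shared regions, with 8 of the 11, while UT 1 and UT 2 had a peak in 1 of them, the Tgif1 region described below. LPS 3 had a peak in 10 shared regions, LPS 1 in 8 and LPS 2 in 3.

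**Figure D1:**
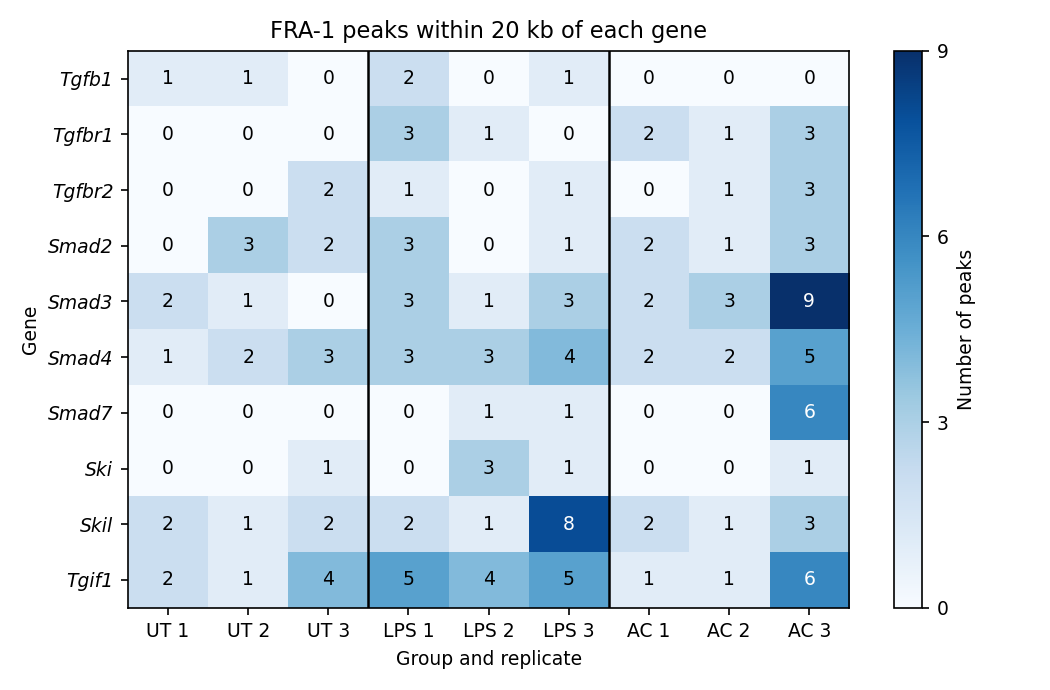
Number of FRA-1 peaks (colour and digits) in the window of each gene, from 20 kb before to 20 kb after the gene body, in the 3 replicates of unstimulated (UT), LPS-treated (LPS) and apoptotic cell-treated (AC) macrophages. Smad4, Skil and Tgif1 had peaks in all 9 replicates and Smad7 in 3, and AC 3 held 9 of the 24 peaks at Smad3 and 6 of the 8 at Smad7.

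The ligand gene Tgfb1 (chromosome 7, 25687002-25705077) encodes TGF-β1. Its window held 1, 1 and 0 peaks in the UT replicates, 2, 0 and 1 in LPS, and 0 in every AC replicate. The groups overlapped in each comparison. The 5 peaks were all in different places, with scores from 86.23 to 189.7. The highest was in LPS 3, at 25677516-25677632, about 9370 bp before the start of the gene. That peak overlapped the neighbouring gene Tmem91, and the deposited table gave it to B9d2 and Tmem91, not to Tgfb1. The other peaks outside the gene body overlapped Tmem91, Ccdc97 or Hnrnpul1. A peak of LPS 1 at 25687073-25687339 began 71 bp after the transcription start, which is the closest that any peak came to a listed start of these genes. Its score of 90.64 stood at percentile 19.7 of that replicate, and no other replicate listed a peak there.

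The 250 bases before that start are shown because the peak began 71 bp after the start. They come from RefSeq (GRCm38.p6, plus strand, chr7:25686752-25687001), and the AP-1 sequence TGAGTCA, on either strand, is not among these letters, nor is the related TGACGTCA.
Tgfb1 promoter: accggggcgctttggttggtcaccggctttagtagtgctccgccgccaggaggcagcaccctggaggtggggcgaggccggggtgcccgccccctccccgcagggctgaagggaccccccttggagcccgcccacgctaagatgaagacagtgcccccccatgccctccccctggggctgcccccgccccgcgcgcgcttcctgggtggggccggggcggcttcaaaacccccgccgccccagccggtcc

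The receptor genes had no shared region. Tgfbr1 (chromosome 4, 47353222-47414926), the type I receptor, had no peak in any UT replicate. It had 3, 1 and 0 peaks in LPS and 2, 1 and 3 in AC. All 3 AC replicates were thus above all 3 UT replicates, whereas LPS overlapped UT through LPS 3. The mean in AC was 2.0 ± 1.0 peaks (SD, n = 3), and the two-sided exact permutation test against UT gave p = 0.1, the smallest that 3 against 3 replicates allow. None of the 10 Tgfbr1 peaks overlapped another, so the AC replicates had peaks in the gene without sharing a site. The highest score, 226.19, belonged to AC 1, at 47354676-47354889, 1454 bp after the first listed start and at percentile 92.5. This peak also overlapped the noncoding gene Gm32435, as did other peaks of LPS 1, LPS 2 and AC 1. One of the 10 peaks, that of AC 2, lay outside the gene body, and the AC replicates no longer stood apart from UT when the gene body alone was counted or when the 20981 highest-scoring peaks of each replicate were used.

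Tgfbr2 (chromosome 9, 116087695-116175363), which encodes the ligand-binding type II receptor, had 0, 0 and 2 peaks in UT, 1, 0 and 1 in LPS, and 0, 1 and 3 in AC. The groups overlapped throughout. Its 8 peaks scored between 58.97 and 158.43, and the highest was that of AC 2, at 116146376-116146570 inside the gene. With 6.27 peaks per 100 kb of window over all replicates, this long gene lay below the median of 14.4 for protein-coding genes.

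Among the signal carriers, Smad2 and Smad3 encode the receptor-activated SMADs and Smad4 their common partner. Smad2 (chromosome 18, 76241090-76311748) had 0, 3 and 2 peaks in UT, 3, 0 and 1 in LPS, and 2, 1 and 3 in AC, with no order among the groups. One region inside the gene, at 76259409-76259619, was shared by 4 replicates. The peak there scored 180.14 in UT 3, 162.25 in LPS 1, 185.22 in LPS 3 and 218.26 in AC 3. Those are the 4 narrow replicates and no others, so every group had the region and no wide replicate did. Of all 2724 regions listed in exactly 4 replicates, 329 (12.1%) had this same set of 4.

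Smad3 (chromosome 9, 63646766-63757994) is the longest of the 10 genes and had 24 peaks. The counts were 2, 1 and 0 in UT, 3, 1 and 3 in LPS, and 2, 3 and 9 in AC. AC 3 alone held 9 of them, and the lowest AC replicate equalled the highest UT replicate. All 24 peaks were in different places. They scored from 69.4 to 285.38, the highest being that of AC 2 at 63748898-63749067, inside the gene. Of the Smad3 peaks, 1 carried the gene's symbol in the deposited table, a peak of AC 3 at 63760308-63760458, 2314 bp before the start, with a score of 203.57 (percentile 95.1).

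Smad4 (chromosome 18, 73634790-73703791) had peaks in all 9 replicates: 1, 2 and 3 in UT, 3, 3 and 4 in LPS, and 2, 2 and 5 in AC. UT 3 equalled the lowest LPS replicates, so the groups overlapped, and the exact permutation test of LPS against UT gave p = 0.3. Its main shared region, at 73688827-73689126 inside the gene, was listed in 7 replicates. The scores there were 196.7 in UT 3, 314.12, 166.55 and 145.26 in LPS 1 to 3, and 169.85, 175.18 and 130.93 in AC 1 to 3. UT 1 and UT 2 had no peak at this site. The scores in UT 3, LPS 2, AC 1 and AC 2 were each held by 6.73% to 8.31% of that replicate's peaks. Those in LPS 1, LPS 3 and AC 3 were held by 0.585% or less. The 7 peaks began at 6 different bases but all ended at the same base, 73689126. One shared edge of this kind was found in 2.73% of the 3515 regions that at least 7 replicates listed with 1 peak each.

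A second Smad4 region, at 73619737-73619914, lay 14876 bp beyond the lower-coordinate end of the gene. It scored 136.64 in LPS 1, 344.84 in LPS 3 and 129.52 in AC 1, and had no peak in LPS 2 or in any UT replicate. These scores were shared by many peaks: 13.0% of those in LPS 1, 1.64% in LPS 3 and 14.4% in AC 1. The third, at 73648449-73648710 inside the gene, was listed in UT 3 with a score of 100.3 and in AC 2 with 196.18. It had no peak in LPS. The other 13 Smad4 regions had 1 replicate each.

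Smad7 (chromosome 18, 75367365-75395935), the inhibitory SMAD and itself a target of the pathway, had no peak in UT, 0, 1 and 1 in LPS, and 0, 0 and 6 in AC. The 6 AC peaks were all from AC 3, the replicate with the most peaks overall. The LPS and AC groups each included a replicate without a peak, so neither stood apart from UT. Scores ran from 58.34 to 171.56, the highest being that of LPS 3 at 75394512-75394621. A score of 171.56 was common in that replicate, where 7.07% of all peaks had it.

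The corepressor genes differed most in how FRA-1 peaks lay around them. Ski (chromosome 4, 155154075-155222535) had 5.53 peaks per 100 kb of window, the fewest of the 10 genes, and 91.9% of protein-coding genes had at least that density. Its counts were 0, 0 and 1 in UT, 0, 3 and 1 in LPS, and 0, 0 and 1 in AC. The groups overlapped, and only 1 replicate of UT and 1 of AC had a peak. The highest score, 267.84 at percentile 90.8, was in UT 3, at 155200427-155200658 within the gene.

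Skil (chromosome 3, 31095058-31122923) had peaks in every replicate. There were 2, 1 and 2 in UT, 2, 1 and 8 in LPS, and 2, 1 and 3 in AC. LPS 3, with 8, was the 1 replicate with more than 3. With 22 peaks in a short window the density was 32.4 per 100 kb, which 5.15% of protein-coding genes reached. A region 11609 bp beyond the lower-coordinate end, at 31083283-31083449, scored 178.77 in LPS 1, 171.56 in LPS 3, 129.52 in AC 1 and 133.78 in AC 2. No UT replicate had a peak there, and neither did LPS 2 or AC 3. All 4 peaks began at the same base. The predicted noncoding gene Gm33694 lay closer to this region than Skil did, at 3341 bp.

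The scores at this Skil region were values that many peaks of the same replicate shared. In LPS 1, 6.36% of peaks had exactly 178.77, in LPS 3 7.07% had 171.56, in AC 1 14.4% had 129.52 and in AC 2 14.4% had 133.78. Over the 10 genes, 80 of the 152 peaks (52.6%) had a score held by at least 1% of their replicate's peaks, against 49.6% of all peaks. The other shared Skil regions lay beyond the higher-coordinate end. At 31132911-31133033 the scores were 150.97 in UT 3 and 304.61 in LPS 3, both narrow replicates. At 31138725-31139044 they were 146.12 in UT 3, 77.94 in LPS 3 and 124.69 in AC 1. Neither region had a group in which all replicates were listed, and Cldn11 lay closer than Skil to the second, at 10876 bp.

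Tgif1 (chromosome 17, 70844205-70853532, minus strand) encodes a homeodomain corepressor that binds SMAD2, and FRA-1 peaks were denser here than at the other 9 genes. The window held 2, 1 and 4 peaks in UT, 5, 4 and 5 in LPS, and 1, 1 and 6 in AC. The lowest LPS replicate equalled the highest UT replicate, and AC spanned the whole range. Means were 2.33 ± 1.53 peaks in UT, 4.67 ± 0.577 in LPS and 2.67 ± 2.89 in AC (SD, n = 3 each), and the exact permutation test gave p = 0.2 for LPS against UT. Summed over replicates, 29 peaks in this short window made 58.8 per 100 kb, a density that 0.128% of protein-coding genes reached. Of the 29 peaks, 24 lay outside the gene body.

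The highest score of the 10 genes was in a region listed in all 9 replicates, at 70842515-70842697, 1508 bp beyond the lower-coordinate end of Tgif1, which is the 3′ end. The scores were 322.72, 342.83 and 552.32 in UT, 534.41, 207.88 and 491.59 in LPS, and 345.44, 378.78 and 367.34 in AC. Each of these was at percentile 90.8 or above in its replicate, and the lowest was that of LPS 2. The means were 406 ± 127 in UT, 411 ± 177 in LPS and 364 ± 16.9 in AC (SD, n = 3 each), and the 3 groups overlapped. Only 1372 of the 300608 regions were listed in all 9 replicates. Gm41610, a noncoding gene, lay slightly closer to the site than Tgif1, at 1231 bp.

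A region inside Tgif1, at 70852277-70852411, lay between 2 of the 5 listed starts of the gene. It scored 264.33 in UT 3, 244.98 in LPS 1, 513.21 in LPS 3 and 128.9 in AC 3. As at Smad2, these were the 4 narrow replicates and no wide one. Its peaks lay 543 to 677 bp before the start at 70851734 and after the outermost start at 70853532. The 250 bases before the outermost start are shown as the promoter nearest to this region that lies outside the gene (RefSeq GRCm38.p6, minus strand, chr17:70853533-70853782). Capitals mark CAGAC, the short sequence that SMAD proteins are known to bind, which begins 201 bases before the start.
Tgif1 promoter: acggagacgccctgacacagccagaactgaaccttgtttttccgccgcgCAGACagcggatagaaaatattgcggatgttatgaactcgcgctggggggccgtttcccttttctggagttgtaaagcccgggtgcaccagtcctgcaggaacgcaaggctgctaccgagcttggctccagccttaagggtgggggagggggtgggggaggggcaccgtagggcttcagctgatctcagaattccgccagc

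Promoter sequences, reaching from 250 bases before to 50 after a start, were found for 11 starts of 6 of the 10 genes. TGAGTCA (or TGACTCA on the other strand) was in 0 of these 11 and in 5.2% of all 32851 promoters in the RefSeq table. TGACGTCA was in 0 of the 11 and in 1.79% of all. CAGAC (or GTCTG) was in 5 of the 11, at Tgfbr1, Tgfbr2 and 3 starts of Tgif1, and in 49.6% of all promoters. These windows do not include the peaks themselves, whose sequence was not analysed here.

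On the upstream side of Tgif1, a region at 70860395-70860565 scored 107.3 in UT 3, 178.77, 126.65 and 344.84 in LPS 1 to 3, and had no peak in AC or in the other UT replicates. It was the one region near these genes, apart from those shared more widely at Tgif1 and Smad4, that all 3 LPS replicates listed. UT 3 also listed it, so the groups overlapped. The region overlapped the microRNA gene Mir1195, and it ended within the mature microRNA at chr17:70860558-70860580 on the minus strand. That sequence is shown from RefSeq with the 8 bases that lie in the region in capitals, and it holds no TGAGTCA or TGACGTCA.
mmu-miR-1195: ugaguucgaggccagCCUGCUCA

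The last shared Tgif1 region, at 70871108-70871220, lay 17576 bp beyond the upstream end. The pseudogene Gm9320 lay closer to it, at 4589 bp. The region scored 178.77 in LPS 1 and 304.61 in LPS 3, both narrow, with no peak in the other 7 replicates. Both peaks began at the same base. The score of 178.77 was held by 6.36% of LPS 1 peaks and 304.61 by 2.85% of LPS 3 peaks.

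**Figure D2:**
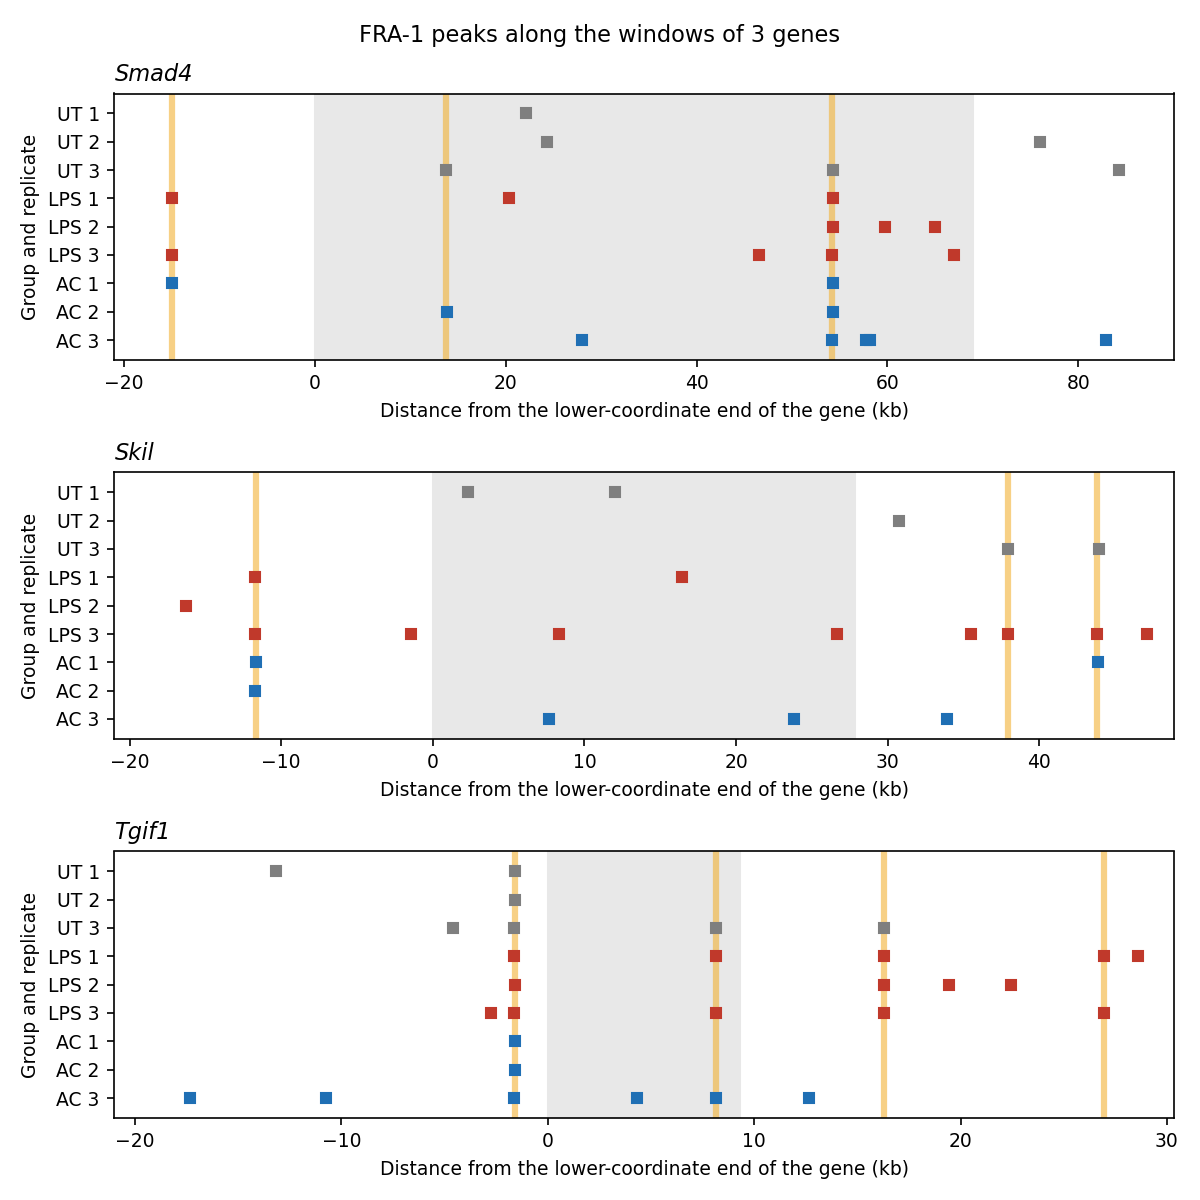
Position of every FRA-1 peak (squares) in the windows of Smad4, Skil and Tgif1, by replicate, as distance in kb from the lower-coordinate end of the gene; grey shading is the gene body and yellow bars are regions shared by at least 2 replicates. The column of 9 squares beside Tgif1 is the region listed in every replicate, and the column of 7 inside Smad4 lacks UT 1 and UT 2.

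**Figure D3:**
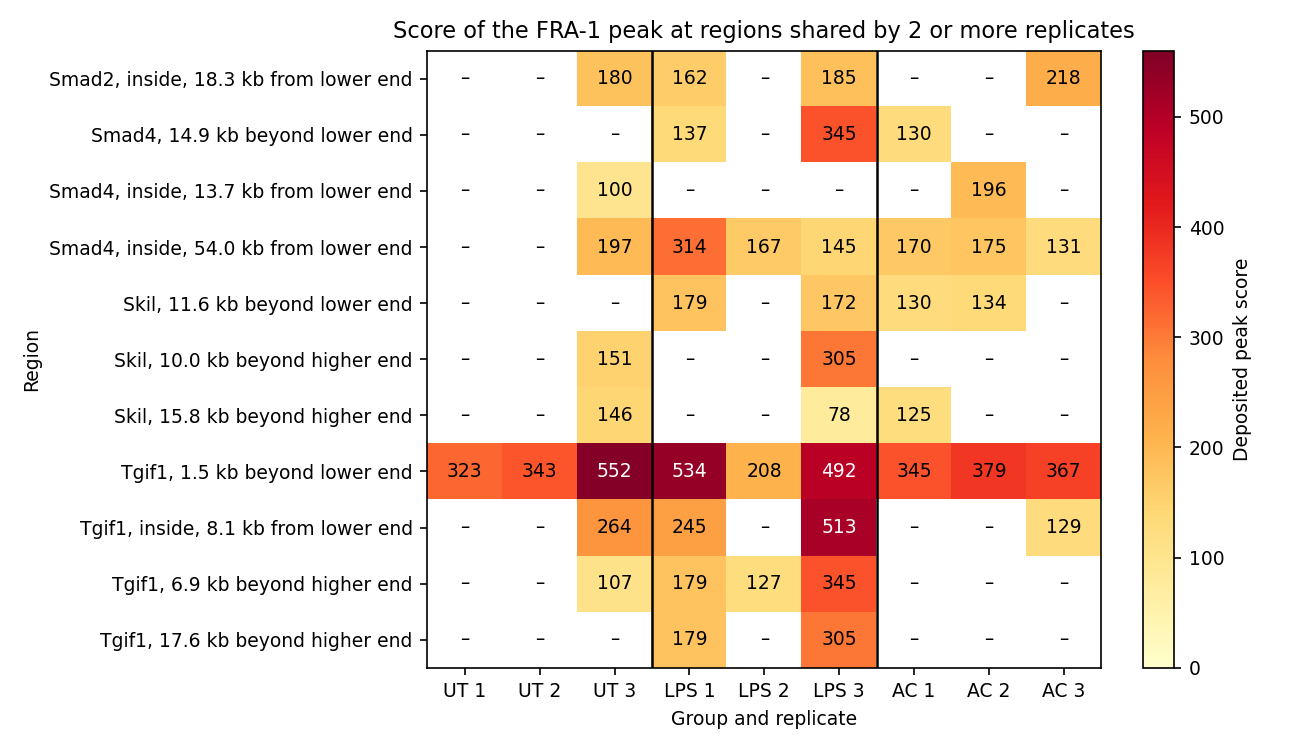
Deposited score of the FRA-1 peak (colour and digits, rounded) at the 11 regions that at least 2 replicates listed, in each replicate; a dash means no peak. The Tgif1 region 1.5 kb beyond the lower end has a score in all 9 columns, and UT 1 and UT 2 have no other entry.

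The first comparison asked whether LPS changed the number of FRA-1 peaks at these genes. Mean counts were higher in LPS than in UT for 8 genes, lower for Smad2 and equal for Tgfbr2, but in 0 of the 10 did every LPS replicate exceed every UT replicate, and in 0 did the opposite hold. Over all 21883 protein-coding genes, 9.87% had every LPS replicate higher and 0.187% had every one lower. Per 10000 peaks of the replicate the means were higher in LPS for 5 genes (Tgfbr1, Smad3, Smad7, Ski and Tgif1) and lower for the other 5. The smallest exact permutation p among the 10 genes was 0.2, for Tgif1. After Benjamini-Hochberg adjustment over all genes no gene passed, the lowest adjusted value of any gene being 0.98, while 2201 genes had the smallest p that 3 against 3 replicates can give, 0.1. No gene could have a p under 0.05 in this design. Leaving out 1 replicate made some genes stand apart: Smad4 and Tgif1 without UT 3, Smad7 without LPS 1, Smad3 and Tgif1 without LPS 2, and Tgfbr1 without LPS 3, all with more peaks in LPS. The share of all genes that stand apart with a replicate left out was not computed, so nothing is read from these names.

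Regions listed in LPS and not in UT were counted next. Near 3 of the 10 genes, Smad4, Skil and Tgif1, 2 or more LPS replicates and no UT replicate listed the same region. Among all protein-coding genes 34.0% had such a region, so the count of 3 was near that share. The share was not matched for gene length, whose median was 65.1 kb for the 10 genes and 17.2 kb for all. Each of the 3 regions rested on LPS 1 and LPS 3, both narrow replicates, and without either one the count was 0. UT 3, the narrow UT replicate, had no peak at any of them, but the rule requires this of every UT replicate, so nothing is read from it. All 3 lay between 11609 and 17576 bp outside the gene, and none remained with a window of 5 kb.

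The second comparison set AC against UT, which shares the UT replicates with the first. Mean counts were higher in AC for 8 genes, lower for Tgfb1 and equal for Ski. Per 10000 peaks of the replicate they were higher for 3 genes (Tgfbr1, Smad3 and Smad7) and lower for 7, and without AC 3 the unscaled means were higher for 2, Tgfbr1 and Smad3. Tgfbr1 was the 1 gene of 10 in which every AC replicate exceeded every UT replicate, and in 0 genes was every AC replicate lower. Over all genes these shares were 6.57% and 0.169%. The adjusted value of Tgfbr1 over all genes was 1.0. It also stood apart from UT with any 1 replicate left out, but this follows from the full set and adds no information. Smad3 stood apart, with more peaks in AC, without UT 1 or without AC 1, and Tgfb1 had fewer peaks in AC without UT 3. No share of all genes was computed with a replicate left out. Near 1 gene, Skil, 2 AC replicates and no UT replicate listed the same region, against 8.12% of all genes with 2 or more.

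LPS was then compared with AC directly. Means were higher in LPS for 5 of the 10 genes (Tgfb1, Smad4, Ski, Skil and Tgif1) and higher in AC for the other 5, and the replicates overlapped in all 10. Over all genes, every LPS replicate was higher than every AC replicate in 1.99% and lower in 1.28%. The smallest exact permutation p among the 10 was 0.4, for Tgfb1 and Tgif1. LPS stood above AC at Tgfb1 without LPS 2, and at Smad4 and Tgif1 without AC 3, again with no share of all genes computed for these settings.

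Summed over the 10 windows, the counts were 8, 9 and 14 peaks in UT, 22, 14 and 25 in LPS, and 11, 10 and 39 in AC. UT 3 and LPS 2 were equal at 14, so LPS and UT met at that value, and AC 1 and AC 2 fell within the UT range. The LPS sum was 1.97 times and the AC sum 1.94 times the UT sum, but without AC 3 the AC ratio was 1.02. Within the narrow replicates the counts were 14 in UT 3, 22 and 25 in LPS, and 39 in AC 3. Within the wide ones they were 8 and 9 in UT, 14 in LPS 2, and 11 and 10 in AC. The replicates with the most peaks as a whole, AC 3, LPS 3 and LPS 1, also had the highest sums, but the order differed among the others. AC 1, with 40821 peaks, had 11 in the windows, and UT 3, with 28314, had 14. Per 10000 peaks of the replicate, the 10 genes had 4.13 ± 0.901 in UT, 4.09 ± 0.639 in LPS and 3.59 ± 1.17 in AC (SD, n = 3 each), and the LPS to UT ratio was 0.990.

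The density of peaks in the 10 windows was also set against the joined windows of all protein-coding genes. In peaks per Mb, the 10 windows had 0.831, 1.15 and 1.31 times the density of all windows in UT 1 to 3, 1.23, 0.949 and 0.984 times in LPS, and 0.719, 0.847 and 1.27 times in AC. The ratios lay on both sides of 1 in every group. Of the 152 peaks, 56.6% overlapped a gene body, and gene bodies made up 58.0% of the windows.

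**Figure D4:**
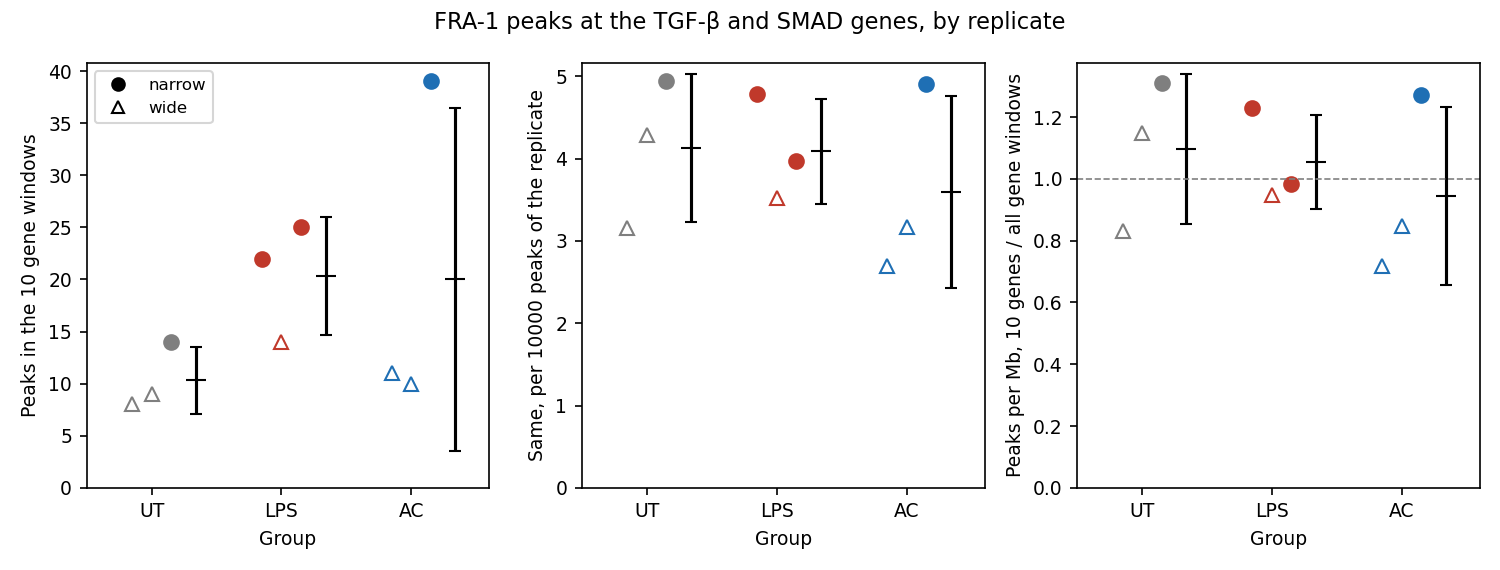
FRA-1 peaks in the 10 gene windows by group, as the number of peaks (left), per 10000 peaks of the replicate (middle), and as peaks per Mb relative to the windows of all protein-coding genes (right, dashed line at 1). Each symbol is a replicate (filled circles narrow, open triangles wide) and bars are mean ± SD; the raw count reaches 39 in AC 3, while the scaled values of the groups overlap.

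Another 44 genes of the wider pathway were examined in the same way. All 44 had at least 1 peak. In 11 of them (25.0%) every LPS replicate exceeded every UT replicate, 5 of which were among the 13 other SMADs and regulators, 3 among the 9 receptors, 2 among the 14 ligands and activating factors and 1 among the 8 targets. In 6 (13.6%) every AC replicate exceeded every UT replicate. The background shares are 9.87% and 6.57% as above. The median length was 39.5 kb for the 44 genes, 17.2 kb for all protein-coding genes and 65.1 kb for the 10. Whether length bears on these shares was not tested. Bambi, a decoy receptor, had 1 peak in each UT replicate and 0 in each LPS replicate. It was the 1 gene of the 44 in which every LPS replicate was lower, beside 0.187% of all protein-coding genes. It was named after its values were seen.

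A region listed in 2 or more LPS replicates but not in UT lay near 19 of the 44 (43.2%), and a like region of AC near 7 (15.9%), beside 34.0% and 8.12% of all genes. By the number of replicates, those at Zfyve9 and Trim33 came first, with 4 each. Zfyve9 encodes SARA, which presents SMAD2 and SMAD3 to the receptor, and its region on chromosome 4 at 108760601-108760772 scored 127.72, 124.74 and 192.09 in LPS 1 to 3 and 131.62 in AC 2. Zfyve9 had 3, 1 and 0 peaks in UT, 7, 5 and 8 in LPS, and 0, 2 and 8 in AC, and the LPS and UT replicates did not overlap. Trim33, a ubiquitin ligase that acts on SMAD4, had a region on chromosome 3 at 103351447-103351615 with scores of 127.75 in LPS 1, 192.69 in LPS 3, 158.73 in AC 1 and 124.89 in AC 2. Its counts overlapped, at 3, 4 and 0 in UT and 3, 2 and 12 in LPS.

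Regions of 3 replicates followed at Itgav, Tgfbr3, Acvr2a and Bmpr2, taken in the order of the list. Genes later in the list also had regions of 3 replicates and were left out by the limit of 6 genes. The Acvr2a region was listed in LPS 2, AC 2 and AC 3 and that of Bmpr2 in LPS 3, AC 1 and AC 3. Both regions therefore met the rule for AC and not that for LPS. Elsewhere in their windows Acvr2a had 1 region and Bmpr2 had 2 that met the LPS rule. Itgav is an integrin subunit that helps release active TGF-β, and it had 1, 1 and 0 peaks in UT, 5, 2 and 6 in LPS and 8, 2 and 3 in AC. Acvr2a, an activin receptor, had 1, 1 and 2 in UT, 3, 3 and 4 in LPS and 4, 4 and 7 in AC. The BMP receptor gene Bmpr2 had 2 in every UT replicate, 6, 3 and 5 in LPS and 9, 3 and 10 in AC. The replicates of both stimulated groups lay above those of UT in these 3 genes, but the genes were named for a region absent from UT and the comparisons share the UT replicates, so nothing is read from this. Tgfbr3, a coreceptor known as betaglycan, had 5, 1 and 2 in UT, 6, 1 and 11 in LPS and 4, 3 and 9 in AC, and its groups overlapped.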

How the data were processed

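FRA-1 ChIP libraries were sequenced as single reads of 100 bp. Per the labels' processing notes BWA 0.7.14 and bedtools were used, with the build mm10 (GRCm38); the peak caller, its settings and the use of the inputs are not given in the sources used here. The deposited tables hold 1 score per peak and replicate, cut into segments where peaks of a group begin or end, with -1 for no peak. Adjoining segments with a replicate's score were joined back into peaks. The score columns name no mouse. Peaks overlapping a RefSeq (GRCm38.p6) gene window by at least 1 bp were counted. Groups were compared by two-sided exact permutation tests with Benjamini-Hochberg adjustment over 21883 genes, and a gene was called where the replicates of 2 groups did not overlap. Joining, counting and calling were tested on simulated data. For calling, unchanged simulated windows had the same mean in every replicate. The real replicates held 20981 to 79474 peaks, so calling at such unequal totals was not tested. Python 3.11.15, numpy 2.4.6, pandas 2.3.3 and matplotlib 3.10.9 were used. The 10 genes, the lists and the tests were chosen with earlier results of these data known. All 10 genes were named. Shared regions were named with every score, single regions by range and highest score, with the peaks nearest a start or carrying a symbol added after their values were seen. Of the other pathway genes at most 6 were named, by the number of replicates in a region absent from UT, ties in list order, and Bambi was added after its values were seen. Alternatives were windows of 5 and 50 kb or the gene body, the deposited symbol alone, scores of at least 100, equal numbers of peaks, peaks per 10000, either width class, joining within 100 bp, and leaving out each replicate.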

Additional observations from a re-analysis of the deposited data

How the results depend on the processing

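No paired analysis was possible because nothing in the tables links a score column to a mouse. With 3 replicates a group and unknown read depth, a missing peak does not show absence of binding. The ratio of summed peaks, LPS to UT, was 1.97, ranging from 1.74 to 2.39 with a replicate left out, but 0.963 with equal numbers of peaks and 0.990 per 10000 peaks. AC to UT, at 1.94, ranged from 1.02 to 2.42 with a replicate left out, and was 0.926 with equal numbers of peaks, 0.870 per 10000 peaks and 2.79 in the narrow class. LPS to AC, at 1.02, ranged from 0.813 to 1.94 with a replicate left out, the last without AC replicate 3, and was 0.603 in the narrow class. Genes called in LPS against UT numbered 0, but 1 (Tgfb1) with 50 kb and 0 to 2 with a replicate left out. In AC against UT there was 1, but 0 with the gene body, the deposited symbol or equal numbers of peaks. There were 2 in the wide class (Tgfbr1 higher, Tgfb1 lower) and 1 to 2 with a replicate left out. In LPS against AC there were 0, but 1 with equal numbers of peaks (Smad3, lower), 1 per 10000 peaks (Tgif1, higher) and 0 to 2 with a replicate left out. The count of 3 genes with an LPS region absent from UT was 0 with 5 kb, the gene body or the deposited symbol, and 0 to 4 with a replicate left out. The matching AC count, a rule added after seeing the data, was 1, but 0 with 5 kb, the gene body or the symbol, 2 with 50 kb or the wide class, and 0 to 2 with a replicate left out. Of 450 differences of single genes under an alternative, 49 had the opposite sign, none of them for a called gene. Calls with a lone replicate in a group of a width class were not made. The search of the regions for AP-1 sequences, whole or over 200 bp, was not run; the promoter search was run in its place, and adding TGACGTCA left it at 0. Shares over all genes were computed for the main setting alone, so the counts under the alternatives have no background beside them. For each change above the cause was not tested.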
